A study of Homo sapiens with 6 samples.

Results

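Cyclic nucleotide phosphodiesterases were examined in MCF10A cells in which YAP and TAZ had been depleted. Described here are 8 of the 23459 genes in the count table, namely PDE7B, PDE7A, PDE8A, PDE4A, PDE4B, PDE4D, PDE3A and PDE3B. They were chosen by name, with the rise of PDE7B in this comparison already known, so every siYAP/TAZ value of these genes is given as a description, and no test result is read from it. The question asked of the libraries was how the cAMP-degrading enzymes and the rest of the cAMP pathway were expressed when YAP and TAZ were reduced.

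MCF10A is a line of human breast epithelial cells that are immortal but not tumorigenic. All libraries are labelled WT. The cells had received siRNA at 20 nM, which was non-targeting in the siCtrl group (n = 3) and directed at YAP plus TAZ in the siYAP/TAZ group (n = 3). The time after transfection is not given in the sources used here, and both groups are one cell line with a transient, partial depletion. All cells were grown in DMEM/F12 with 5% horse serum, antibiotics, 10 µg/ml insulin, 0.5 µg/ml hydrocortisone, 20 ng/ml EGF and 0.1 µg/ml cholera toxin, an agent that locks the stimulatory G protein in its active state and so raises cAMP. The siCtrl cells therefore carried this stimulus as well. RNA was read by QuantSeq, which sequences from the 3′ end of polyadenylated RNA.

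The second messenger cAMP is made by adenylyl cyclases downstream of G protein-coupled receptors, activates protein kinase A (PKA) and other effectors, and leads through the transcription factor CREB to induction of genes with a cAMP response element (CRE) in their promoter. Phosphodiesterases end the signal by hydrolysing cAMP to AMP. PDE4, PDE7 and PDE8 enzymes are specific for cAMP, whereas PDE3 enzymes hydrolyse both cAMP and cGMP and are inhibited by cGMP.

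The libraries held 3175149 to 4317286 counts, so that a count of 0 allows up to 3 counts or 0.680 to 0.992 CPM (counts relative to the TMM-adjusted library total). This floor is for counting error only. For 2 libraries the labels conflict: both the title and the genotype field place siCtrl replicate 2 with siYAP/TAZ, and both place siYAP/TAZ replicate 2 with the control. Groups follow the description field, under which YAP1 spanned 189 to 210 CPM in siCtrl and 112 to 118 CPM in siYAP/TAZ. WWTR1, which encodes TAZ, spanned 102 to 109 CPM and 59.8 to 70.5 CPM, so both targets separated the groups as described and not as titled. The library siCtrl replicate 2 stood apart, with Spearman correlations of 0.943 and 0.957 with the other siCtrl libraries, against 0.98 between those. It correlated at 0.957, 0.964 and 0.958 with siYAP/TAZ replicates 1 to 3, so over all genes it was nearest to siYAP/TAZ replicate 2, the other library with conflicting labels. Basal and epithelial markers such as KRT5 and KRT6A were abundant (9 genes, summed 3020 to 3167 CPM in siCtrl and 2175 to 2301 CPM in siYAP/TAZ). The luminal receptor genes ESR1 and PGR summed to 3.45 to 6.48 and 3.85 to 5.71 CPM. For 8 blood, endothelial and fibroblast markers the sums were 3.73 to 7.71 and 6.80 to 13.6 CPM, with COL1A2 at 0 in every library and PECAM1 the highest at 4 to 29 counts. The part of these markers in the values below was not tested.

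The promoter of PDE7B is shown first, because PDE7B carried the one large difference among the phosphodiesterases. The 250 bases before its RefSeq start (GRCh38.p14, chr6:135851451-135851700, plus strand) read as follows, with the full CRE in capitals.

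PDE7B promoter: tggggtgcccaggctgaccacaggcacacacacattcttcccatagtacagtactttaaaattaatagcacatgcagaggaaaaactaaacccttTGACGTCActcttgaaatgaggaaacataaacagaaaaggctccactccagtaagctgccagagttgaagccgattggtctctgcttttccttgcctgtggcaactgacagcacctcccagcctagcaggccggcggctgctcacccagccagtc

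The CRE, spelled TGACGTCA and identical on both strands, began 155 bases before the start. It was present in 1.6% of 34788 windows of this length before RefSeq starts (570 windows) and in 0 of the 23 windows of the other members that have an entry (PDE8A, PDE4A, PDE4B, PDE4D and PDE3A). PDE7A and PDE3B have none. Its half-site TGACG, which the full CRE contains on each strand, was present in 21.2% of all windows and in 2 of those 23, one each for PDE4A and PDE4D. The PDE7B window held no match on either strand to the TEAD motif GGAATG (11.9% of all windows), the AP-1 motif TGANTCA (6.6%) or the GC box GGGCGG (42.6%). Among the 23 windows of the other members, 1 held the TEAD motif, 3 the AP-1 motif and 8 the GC box. These matches describe letters in a window and not binding.

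PDE7B (Entrez 27115; GRCh37 chromosome 6, 136172839 to 136516712, plus strand) encodes a high-affinity, cAMP-specific phosphodiesterase. The siCtrl replicates 1 to 3 gave 18, 25 and 23 counts, and the siYAP/TAZ replicates 1 to 3 gave 152, 87 and 155. After scaling, PDE7B lay at 5.17, 7.71 and 5.78 CPM in the control cells, compared with 34.5, 28.8 and 42.2 CPM after depletion. All siYAP/TAZ libraries were high and all siCtrl libraries low, with the lowest siYAP/TAZ value 3.73 times the highest siCtrl value. Both of these extremes came from replicate 2, the libraries with conflicting titles.

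The means for PDE7B were 6.22 ± 1.33 CPM (SD, n = 3) in siCtrl and 35.1 ± 6.72 CPM (SD, n = 3) in siYAP/TAZ. The edgeR fit gave a log2 fold change of 2.50 (SE 0.25), a 5.66-fold rise with a 95% interval of 3.86 to 8.29. Within replicate numbers, which were taken as pairs and are not labelled as such, the ratios were 6.66, 3.73 and 7.29. By fitted log2 fold change PDE7B ranked at position 23 of the 12510 genes tested. The rise was seen in every pair, and its size was smallest in the pair with conflicting titles. With both of those libraries left out the log2 fold change was 2.80, and with the groups of the titles it was 1.13.

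**Figure D1:**
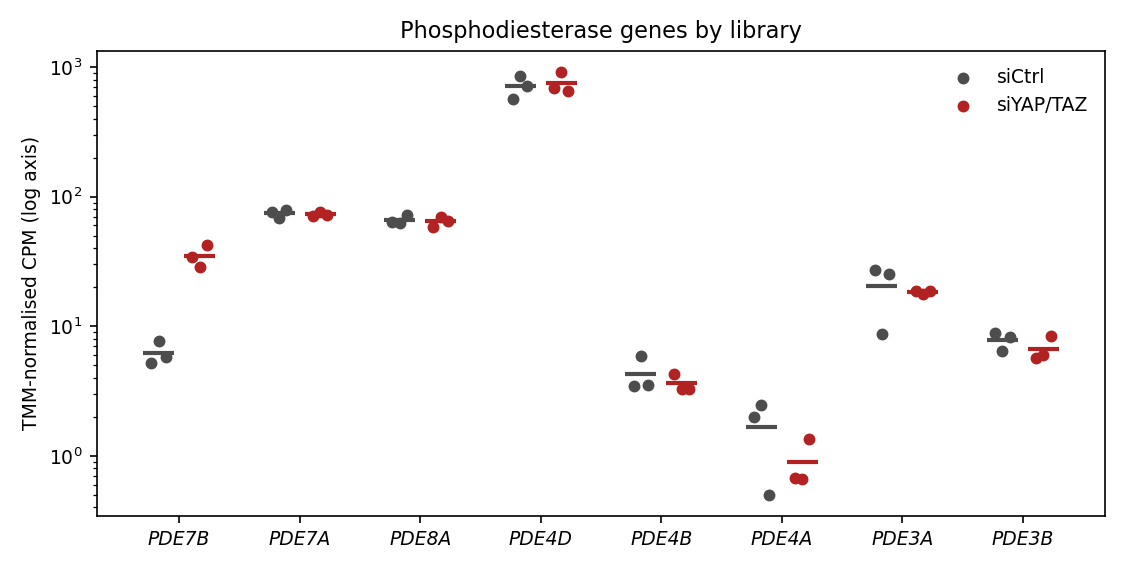
TMM-normalised CPM of the 8 phosphodiesterase genes in each library, on a log axis. Grey points are the 3 siCtrl and red points the 3 siYAP/TAZ libraries, with lines at the group means. PDE7B alone has separated groups, at 5.17 to 7.71 and 28.8 to 42.2 CPM.

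PDE7A (Entrez 5150; GRCh37 chromosome 8, 66626569 to 66754557, minus strand) is the paralog of PDE7B and encodes the other PDE7 enzyme. Its siCtrl libraries read 76.7, 68.8 and 78.4 CPM, and its siYAP/TAZ libraries 70.3, 76.0 and 72.6 CPM. These values overlapped, and the log2 fold change was −0.03 with a 95% interval of −0.32 to 0.25. PDE7B accordingly went from 7.75 ± 2.03% to 32.4 ± 4.67% (SD, n = 3) of the summed CPM of the PDE7 genes. The sum of these values is one of counts and not of molecules, because the mix of 3′ end and intronic reads in each gene was not measured. The PDE7A counts may also include reads of the overlapping gene MTFR1.

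PDE8A (Entrez 5151; GRCh37 chromosome 15, 85523671 to 85682376, plus strand) encodes a further high-affinity cAMP-specific enzyme. Control libraries read 63.8, 62.3 and 72.1 CPM, and depleted libraries 58.7, 70.1 and 64.7 CPM. The groups overlapped, with a log2 fold change of −0.04 and an interval of −0.35 to 0.27.

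The PDE4 genes encode the rolipram-sensitive, cAMP-specific enzymes. PDE4D (Entrez 5144; GRCh37 chromosome 5, 58264865 to 59817947, minus strand) stood at 568, 852 and 708 CPM under siCtrl, against 694, 917 and 649 CPM under siYAP/TAZ. Replicate 2 was the highest library in both groups, and the groups overlapped (log2 fold change 0.09, interval −0.35 to 0.52). PDE4D held 75.2% to 84.0% of the summed CPM of the 8 genes in any library, a share of counts in the gene with the longest span.

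PDE4B (Entrez 5142; GRCh37 chromosome 1, 66258197 to 66840262, plus strand) was sparse, with siCtrl counts of 12, 19 and 14 and siYAP/TAZ counts of 19, 10 and 12. The groups overlapped, and at this depth the log2 fold change of −0.21 had an interval of −1.02 to 0.60 (0.493 to 1.51 times the siCtrl level). PDE4A (Entrez 5141; GRCh37 chromosome 19, 10527449 to 10580306, plus strand) gave siCtrl counts of 7, 8 and 2 and siYAP/TAZ counts of 3, 2 and 5. It did not pass the low-count filter and has no fitted change. It was at or near the floor, and no difference was detectable at this depth.

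The PDE3 genes encode the cGMP-inhibited enzymes. PDE3A (Entrez 5139; GRCh37 chromosome 12, 20521471 to 20841517, plus strand) read 27.0, 8.64 and 25.1 CPM in control libraries, and 18.6, 17.9 and 18.8 CPM in depleted ones. The siCtrl group thus held both the highest values and, in replicate 2, the lowest, and the log2 fold change was −0.15 (interval −0.94 to 0.65). Without siCtrl replicate 2 it was −0.50, and without siCtrl replicate 1 or 3 it was 0.11 or 0.04. PDE3B (Entrez 5140; GRCh37 chromosome 11, 14665350 to 14893590, plus strand) read 8.90, 6.48 and 8.29 CPM, against 5.67, 5.95 and 8.43 CPM after depletion, with overlapping groups (log2 fold change −0.24, interval −0.90 to 0.41).

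Of the 8 members, 7 passed the low-count filter, 2 of them with log2 fold changes above 0 and 5 below, and their median was −0.04 against −0.0009 over all genes tested. Past an adjusted p of 0.05 lay 1 of the 7, PDE7B, where 1.96% of all 12510 genes tested did (0.743% higher, 1.22% lower). With the replicate block the members' count was again 1, beside 4.66% of all genes called higher and 5.44% lower. In 1 of the 8, again PDE7B, the siYAP/TAZ libraries all lay above the siCtrl libraries, as in 11.0% of genes tested. Nothing is read from these counts, since the choice of genes used this contrast. The 7 other genes had overlapping groups.

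Summed over all 8 genes, the level was 890 ± 130 CPM in siCtrl and 956 ± 143 CPM in siYAP/TAZ (SD, n = 3), and this sum was mostly PDE4D. Without PDE4D and PDE7B the sums were 175 ± 17.8 and 167 ± 8.04 CPM, differing by less than the SD in siCtrl. The share of PDE7B in the summed CPM of the 7 genes other than PDE4D was 2.77%, 4.75% and 2.98% in siCtrl and 17.9%, 14.2% and 19.9% in siYAP/TAZ.

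**Figure D2:**
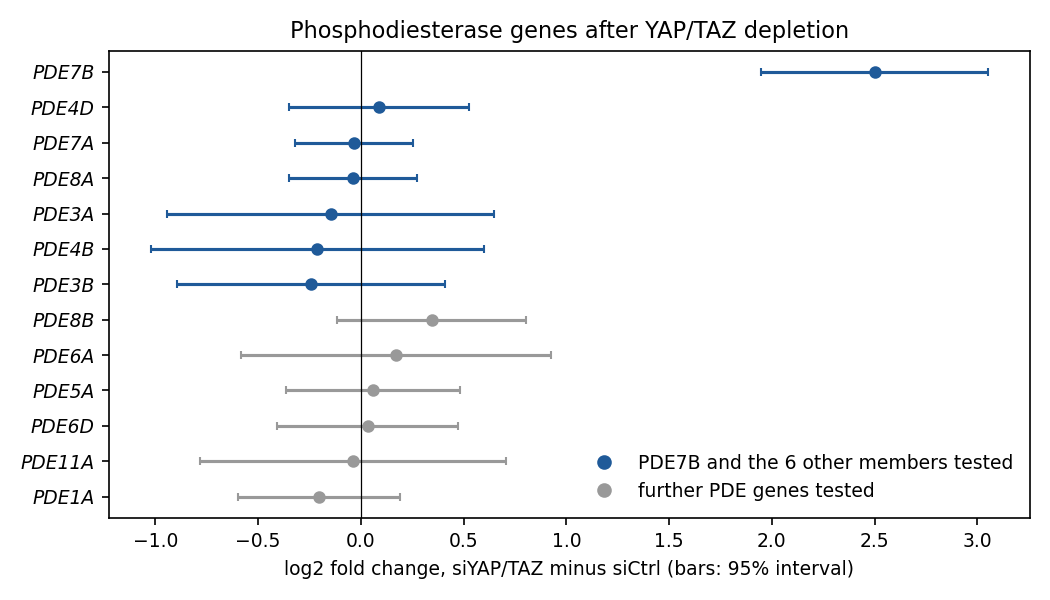
Fitted log2 fold change (siYAP/TAZ minus siCtrl) of each tested phosphodiesterase gene, with bars for the 95% interval. Blue marks the genes described here and grey the further PDE genes. The PDE7B interval lies at 1.95 to 3.05, and the other intervals include 0. For the members this is a description and not a test, since they were chosen with this contrast known.

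Among the 16 further PDE genes, which include the cGMP-preferring and dual-specificity enzymes, 6 were tested and 0 passed in either direction by edgeR (0 also at an unadjusted p under 0.05, and 0 with the replicate block). Their log2 fold changes ranged from −0.20 to 0.34. The gene with the most counts was PDE1A, a calcium- and calmodulin-activated enzyme, at 58.8 ± 7.36 CPM in siCtrl and 50.9 ± 9.56 CPM in siYAP/TAZ (SD, n = 3). The other 10 genes had at most 15 counts in any library.

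What the counts of these genes can and cannot separate was checked on the table itself. SYN1 had 861, 747, 1660, 1559, 697 and 1377 counts in the 6 libraries, where TIMP1, which lies in an intron of SYN1 on the opposite strand, had 859, 747, 1658, 1558, 696 and 1376. Over 17 such pairs of genes, the outer gene had at least the counts of the inner one in all libraries in 15 (88.2%) and not in 2. Where the outer gene had far more counts, as IMMP2L against LRRN3 (means 1235 and 50.8), the pair says little. Near-equal pairs such as SYN1 and TIMP1 show reads of an inner gene counted for its host, across introns and strands. In the 2 exceptions the outer gene had the lower mean (C1orf105 61.7 against PIGC 77.8, HEATR4 79.2 against ACOT1 105.5). Counting over the whole of these spans and from both strands would not give this. Such counting was thus taken to hold for some genes and not for all, and it was not shown for each gene described here. Where it holds, reads of antisense or nested genes cannot be told apart from those of the host.

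The span of PDE7B is overlapped by PDE7B-AS1 and other non-coding genes on the minus strand, and none of these has a row of its own in the table. Whether the added reads came from the PDE7B strand was thus not measured. The counted neighbours of PDE7B gave values of their own. AHI1-DT, 23.0 kb before its start, gave siCtrl counts of 44, 39 and 77 and siYAP/TAZ counts of 87, 61 and 81 (log2 fold change 0.48, edgeR adjusted p = 0.322). MTFR2, 35.5 kb beyond its end, had 56, 36 and 62 and then 46, 23 and 26 counts (log2 fold change −0.76, edgeR adjusted p = 0.187). Neither neighbour passed the test, and their fitted changes were of opposite sign. Of the other members, PDE7A overlaps MTFR1, which had 44.8% as many counts, and PDE4A overlaps CDC37, which had far more counts than PDE4A itself.

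**Figure D3:**
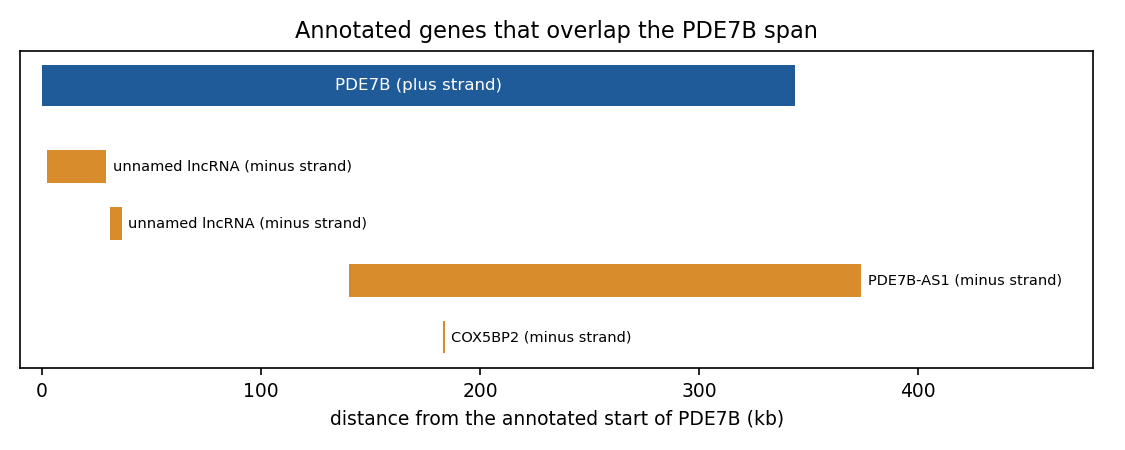
Annotated genes that overlap PDE7B, drawn to scale as distance in kb from its annotated start. PDE7B (blue, 343.9 kb) shares most of its later portion with PDE7B-AS1 on the opposite strand (orange).

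Because reads can be counted over whole gene spans, levels were compared between genes per 100 kb of gene span. In siCtrl the order of these levels was PDE7A (58.3 CPM per 100 kb), PDE4D (45.7), PDE8A (41.6), PDE3A (6.33), PDE3B (3.46), PDE4A (3.14), PDE7B (1.81) and PDE4B (0.735). The leading group of PDE7A, PDE4D and PDE8A was not fully resolved, since PDE4D spanned 36.6 to 54.8 and overlapped both PDE7A (53.8 to 61.3) and PDE8A (39.3 to 45.4). The PDE7A level may also include reads of MTFR1, which had 44.8% as many counts. The division by span decided this order, since in undivided siCtrl CPM PDE4D (mean 709) lay far above PDE7A (74.6) and PDE8A (66.1). PDE3A, PDE3B and PDE4A overlapped one another as well, and PDE4A overlapped PDE7B and PDE4B. PDE7B (1.50 to 2.24) and PDE4B (0.592 to 1.01) were separate from each other.

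In siYAP/TAZ the level of PDE7B was 10.2 CPM per 100 kb (8.36 to 12.3), between PDE8A (mean 40.6) and PDE3A (mean 5.75), and its range overlapped neither. By these means PDE7B stood at position 7 of 8 in siCtrl and 4 of 8 in siYAP/TAZ. The siCtrl position was not resolved, since PDE4A, with few counts, overlapped PDE7B. Without division by span, PDE7B in siCtrl (mean 6.22 CPM) lay above PDE4B (4.28) and PDE4A (1.66). In siYAP/TAZ it lay between PDE8A (64.5) and PDE3A (18.4) on that measure too. As a scale for such values, the 69 protein-coding genes with spans of 1000 kb or more had a median of 1.29 CPM per 100 kb in siCtrl (quartiles 0.509 and 5.53). PDE7B, with a span of 343.9 kb, is not one of them. Over all 18699 protein-coding genes the siCtrl median was 24.1 (quartiles 0.95 and 111), above PDE7B in either group. The siCtrl level of PDE7B was above that of 55.1% of the 69 long genes. Its siYAP/TAZ level was above the siCtrl level of 82.6% of them. Reads at the 3′ end do not grow with length whereas intronic reads do, and their mix in each gene was not measured.

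**Figure D4:**
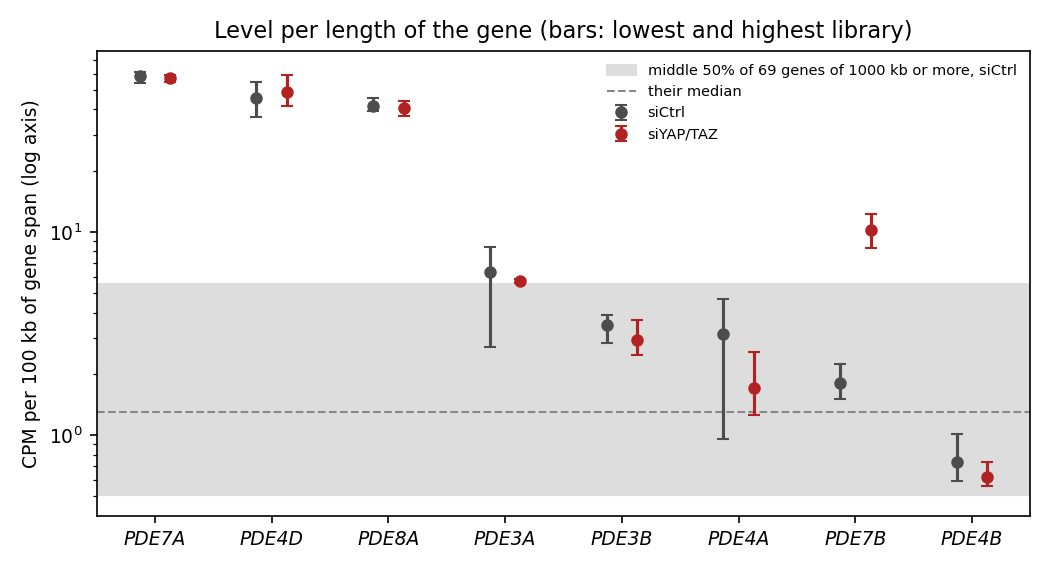
Mean CPM per 100 kb of gene span for each gene in siCtrl (grey) and siYAP/TAZ (red) on a log axis, with bars from the lowest to the highest library. The shaded band is the middle 50% of 69 genes of 1000 kb or more in siCtrl and the dashed line their median of 1.29. PDE7B moves from 1.81 to 10.2.

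The other members did not follow PDE7B across the libraries. Pearson's r of log2 CPM with PDE7B over the 6 libraries was between −0.46 (PDE3B) and 0.20 (PDE4D), given as a description. The genes most like PDE7B among 8913 with a mean of at least 50 counts were PIK3R2 (r = 0.9975), SLC9A9 (0.9965), C9 (0.9951), ABCC5 (0.9871) and GSTK1 (0.9869). After subtraction of the group means r was 0.985, 0.91, 0.933, 0.477 and 0.799 in the same order. The genes had been picked out of 8913 by r over the same 6 libraries, a choice that can raise these values too. Likeness beyond the group difference was thus not tested.

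Among these 5, only C9, which encodes a component of the complement membrane attack complex, had a step of similar size, from siCtrl counts of 11, 20 and 19 to siYAP/TAZ counts of 112, 71 and 134. Its log2 fold change was 2.59 (SE 0.30) next to 2.50 (SE 0.25) for PDE7B. PIK3R2, a regulatory subunit of PI3-kinase, went from 43.1 ± 1.16 to 68.8 ± 2.71 CPM, and SLC9A9, an endosomal sodium/proton exchanger, from 71.9 ± 6.67 to 126 ± 4.97 CPM (SD, n = 3). The transporter gene ABCC5 (log2 fold change 0.64) and the glutathione transferase gene GSTK1 (0.28) had smaller steps.

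The rest of the cAMP pathway was read from a list of 76 genes in 9 roles, all found in the table, of which 51 passed the low-count filter. The list does not hold every gene of the pathway. PALM2AKAP2 and CREB5 were not on it, and both were lower (log2 fold changes −1.02 and −1.50, edgeR adjusted p = 0.00797 and 0.0116). The counts below are for the listed genes only. By edgeR 2 fell, AREG and AKAP12, and 0 rose. At an unadjusted p under 0.05 there were 6 lower and 1 higher of the 51, where 9.27% of all genes were lower and 8.4% higher, and the median log2 fold change of the 51 was −0.07. DESeq2 called the same 2 genes lower and 0 higher. Over all genes 1.22% were called lower and 0.743% higher. With the replicate block 4 were lower, among them AREG, AKAP12 and AKAP6, and 1 higher (DUSP1), beside 5.44% and 4.66% of all genes.

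AREG (Entrez 374; GRCh37 chromosome 4, 75310853 to 75320722, plus strand) encodes the EGF receptor ligand amphiregulin and was listed as a CREB target. Control libraries gave 4267, 2167 and 4192 counts, and depleted libraries 1229, 657 and 1073. The groups did not overlap, and replicate 2 was the lowest library in each. AREG fell from 983 ± 285 to 263 ± 39.8 CPM (SD, n = 3), a log2 fold change of −1.90 (SE 0.23, edgeR adjusted p = 0.00879). The call was lost without siCtrl replicate 3 (adjusted p = 0.0573) or without siYAP/TAZ replicate 3 (adjusted p = 0.0657), where fewer libraries entered the edgeR fit. The hg19 assembly carries a near-identical copy of AREG, so its level is uncertain where reads could be assigned to either.

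AKAP12 (Entrez 9590; GRCh37 chromosome 6, 151561102 to 151679694, plus strand) encodes a scaffold that tethers PKA near the plasma membrane. Its siCtrl counts of 149, 76 and 105 lay above its siYAP/TAZ counts of 43, 32 and 55, again without overlap. The fall was −1.39 on the log2 scale (SE 0.28, edgeR adjusted p = 0.0421). Leaving out any library other than siCtrl replicate 2 ended this call, with log2 fold changes of −1.08 to −1.60 across the libraries left out.

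**Figure D5:**
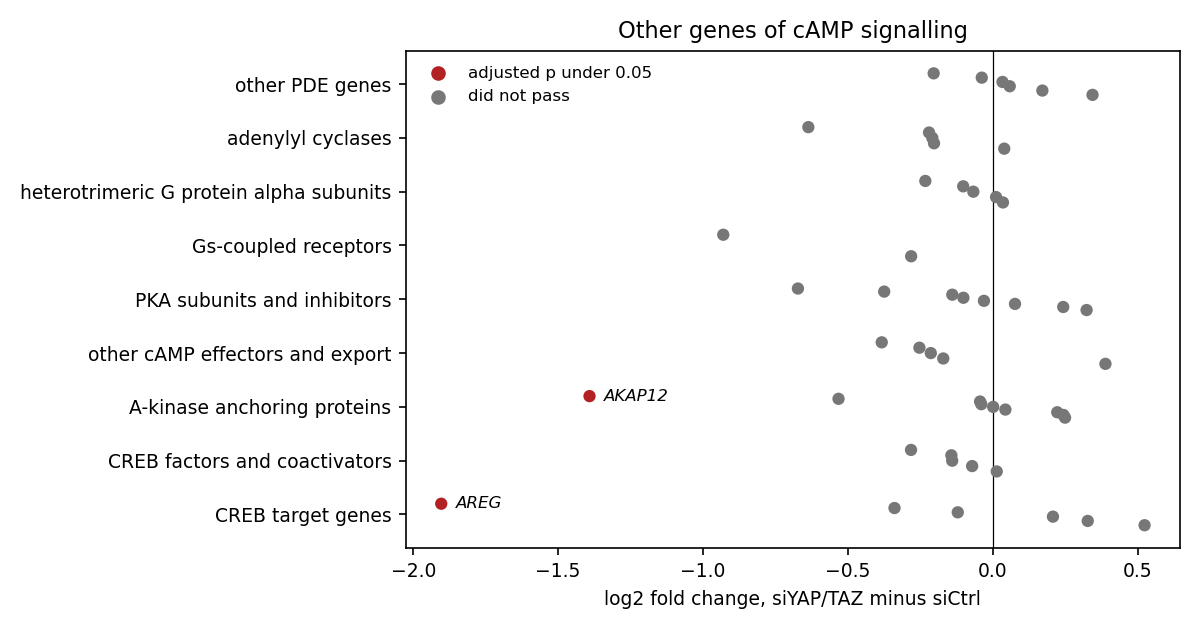
Fitted log2 fold changes (siYAP/TAZ minus siCtrl) of the 51 tested cAMP pathway genes, 1 point per gene, by role. Red points (AREG at −1.90, AKAP12 at −1.39) have an adjusted p under 0.05 and grey points do not.

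Upstream of cAMP, 0 of 5 tested adenylyl cyclases, 0 of 5 G protein alpha subunits and 0 of 2 Gs-coupled receptors passed in the edgeR test. Of the cyclases, 1 was lower at an unadjusted p under 0.05 (ADCY7, which overlaps the more highly counted BRD7). The cyclase with the most counts, ADCY3, was at 72.8 ± 5.57 and 63.4 ± 9.84 CPM (SD, n = 3), although it overlaps CENPO, which had 73.8% as many counts. GNAS, which encodes the stimulatory alpha subunit that cholera toxin acts on, was at 160 ± 6.05 and 161 ± 24.4 CPM. The adenosine receptor gene ADORA2B was at 23.2 ± 6.68 and 19.2 ± 3.22 CPM.

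Downstream, 0 of 8 PKA subunit and inhibitor genes, 0 of 5 other effector and export genes and 0 of 5 listed CREB factors and coactivators passed. Of these 18, 1 (POPDC2) was lower at an unadjusted p under 0.05. PRKAR1A, a regulatory subunit of PKA, was at 224 ± 12.4 and 236 ± 27.3 CPM (SD, n = 3). The CREB coactivator gene CRTC3 was at 116 ± 11.7 and 95.2 ± 5.98 CPM, without overlap of the groups (log2 fold change −0.28, edgeR adjusted p = 0.305). POPDC2 values are not read as its own, because its 405, 323, 385, 433, 212 and 261 counts were nearly those of the overlapping gene COX17 (389, 319, 374, 425, 207 and 251).

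Of 9 tested A-kinase anchoring proteins on the list AKAP12 was the one that passed. AKAP9, a scaffold at the centrosome and Golgi, had the most counts (237 ± 39.7 and 277 ± 20.4 CPM), although it overlaps CYP51A1, which had 66.6% as many counts. AKAP6 passed only with the replicate block and without siCtrl replicate 2, at a log2 fold change of −0.53 (edgeR adjusted p = 0.139 with group alone and 0.0320 with the block). Among the 6 tested CREB target genes AREG passed, and DUSP1, a phosphatase of MAP kinases, gave siCtrl counts of 540, 355 and 392 and siYAP/TAZ counts of 787, 469 and 693. The groups of DUSP1 overlapped, and its log2 fold change of 0.52 passed with the block (edgeR adjusted p = 0.0390) and not without it (0.177). The 6 CREB target genes thus held 3 log2 fold changes above 0 and 3 below.

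Single libraries moved these counts in both directions. Without siCtrl replicate 3 or without siYAP/TAZ replicate 3, 0 pathway genes were lower and 0 higher by edgeR. Leaving out any of the other libraries except siCtrl replicate 2 gave 1 lower and 0 higher. Without siCtrl replicate 2, 4 pathway genes were lower and 1 higher (AKAP13), beside 6.22% and 6.08% of all 12836 genes then tested.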

How the data were processed

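The authors deposited 1 table of raw read counts per Entrez gene for 6 QuantSeq 3′ mRNA-Seq libraries, with no normalisation. The submitters' processing notes name cutadapt 4.2, Bowtie2 2.3.5.1 and hg19. The counting annotation and strand setting are not given in the sources used here. Symbols came from RefSeq (GRCh38.p14; 23308 IDs matched), positions from GENCODE lifted to GRCh37, the coordinates of hg19, and promoter windows from RefSeq (GRCh38.p14; 6 of 8 members matched).

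Groups and replicate numbers follow the description field. In R 4.3.3, edgeR 4.0.16 filtered the genes with filterByExpr, scaled the libraries by TMM and fitted a quasi-likelihood model on group alone. The p-values of the 12510 genes left were adjusted by Benjamini-Hochberg, with 0.05 as threshold. The self-test ran on simulated data. The fits were repeated with DESeq2 1.42.0, with RLE factors or no scaling factors, with every gene above 0 or only genes averaging 50 counts, with robust dispersions, a replicate block, title groups, both conflicting libraries left out, and each library left out in turn. Leaving out pathway genes overlapped by a counted gene with at least 25% as many counts was added after seeing the data.

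Libraries of one group differed by more than sampling noise (chi-square 5.76 to 18.9 per degree of freedom), so each was counted once. Deviations from the group means correlated between libraries of the same number (r = 0.428, 0.355 and 0.129 across genes, which are not independent replicates), so the numbers, which come from the description field, were taken as pairs. Nothing in the labels says that the libraries came from separate cultures, so p-values measure the spread between these libraries, which may be technical.

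The members, the pathway list and the markers were chosen with earlier results of these data known. Named genes were the members, pathway genes past the threshold, the pathway gene with the highest mean CPM in each role, the 5 genes most correlated with PDE7B (log2 of CPM plus 1) and the siRNA targets. AKAP6, AKAP13, ADCY7, DUSP1, PALM2AKAP2, CREB5 and the genes overlapping or next to a named gene were named after their values were seen. Some genes counted among the lists are not reported here by name. Correlations with PDE7B were computed under the main settings only.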

Additional observations from a re-analysis of the deposited data

How the results depend on the processing

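The number of genes past the threshold moved most: 245 with edgeR, 587 with DESeq2, 556 without a low-count filter, 1263 with the replicate block, 1183 with both conflicting libraries left out and 0 with title groups, and between 16 and 1579 when 1 library was left out. The lowest value came without siCtrl replicate 3 (16) and the highest without siCtrl replicate 2 (1579). RLE scaling, library size alone, a mean of at least 50 counts and robust dispersion gave 248, 238, 186 and 276. The count of members past the threshold was 1, and 0 with title groups, and nothing is read from it because the members were chosen on this contrast. The log2 fold change of PDE7B was 2.50, between 2.35 and 2.68 when 1 library was left out, 2.80 with both conflicting libraries left out and 1.13 with title groups. The replicate block kept it at 2.50. Pathway genes called lower numbered 2, with 4 under the block, 1 at a mean of at least 50 counts, 0 under title groups and 0 to 4 when 1 library was left out. Pathway genes called higher numbered 0, with 1 under the block and 0 to 1 when 1 library was left out. Without pathway genes that share their span with a counted gene both counts were unchanged, at 2 and 0. Of the listed pathway genes that are named, the block changed the calls of AKAP6 and DUSP1 only. Apart from what the construction of each alternative shows (fewer libraries or genes), the cause was not tested. At 3175149 to 4317286 counts per library, PDE4A and PDE4B were too sparse for changes of moderate size to be seen.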
